A study of Mus musculus with 15 samples.

Results

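A pair of carbon tetrachloride (CCl4) schedules was compared in the kidney. In the first, 2 mice were injected with CCl4 for 6 weeks and then with 0.5 of that dose for another 4 weeks (the 10-week schedule), and in the other, 2 mice were injected with CCl4 for 6 weeks only (the 6-week schedule). These 4 kidneys were chosen by the treatment written in the labels and by no measured value, and they are 4 of the 15 samples of the series and 4 of the 14 with counts. All mice were male C57BL/6, all injections were intraperitoneal, and the labels give no age, no dose in mass and no interval between the last injection and necropsy. For reference, 3 kidneys came from mice given olive oil, the vehicle, for 6 weeks, 4 from mice given olive oil for 6 weeks and then ethanol (EtOH) for 4 weeks, and 3 from mice given CCl4 for 6 weeks and then EtOH for 4 weeks, whose titles name CCl4 a second time before EtOH, so the labels leave unclear whether CCl4 went on during those weeks. No group received olive oil or no treatment for 10 weeks, so the added CCl4 at the lower dose and 4 more weeks of age cannot be told apart, and the sample numbers in the titles, lower for the 6-week than for the 10-week schedule, follow the same split. The labels do not say that the kidneys of a group came from separate cages, days or litters, so p-values measure the spread between these kidneys as labelled.

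CCl4 is a solvent that cytochrome P450 enzymes, above all Cyp2e1, turn into a radical that damages membranes, and repeated injection is a standard way to scar the mouse liver. The kidney also carries Cyp2e1, in its proximal tubule, and meets the solvent, the products of the injured liver and the hormones whose breakdown the liver controls. In male mice the proximal tubule additionally carries a large program that depends on androgens, of which the abundant androgen-regulated protein Kap is the best known member.

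Libraries held 19.7 and 20.8 M counts on the 6-week schedule and 17.3 and 17.5 M on the 10-week schedule. Levels are given as CPM, counts relative to a library size scaled by TMM, and a log2 change is the 10-week minus the 6-week value, with its approximate standard error (SE). All 4 libraries were kidney by their defining transcripts: the phosphate transporter Slc34a1 of the proximal tubule lay between 5960 and 7510 CPM, uromodulin (Umod) of the thick ascending limb between 3770 and 5320, and the water channel Aqp2 of the collecting duct between 83.3 and 150. Across 16442 genes the Pearson correlation of log2 CPM was 0.988 between the 6-week kidneys, 0.987 between the 10-week kidneys and 0.979 to 0.987 between schedules, a description over genes, which are not independent. 10-week replicate 1 stood apart in transcripts of fat cells, which are described beside the lipid genes.

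No gene passed an adjusted p of 0.05 between the schedules in edgeR's quasi-likelihood test on the 5 groups of 14 libraries (0 of 16442, 0.0%). At an unadjusted p under 0.05, 577 genes (3.51%) were higher and 519 (3.16%) lower on the 10-week schedule, and the median change of all genes was 0.00. Both 10-week libraries lay above both 6-week libraries for 3964 genes (24.1%) and below both for 3768 (22.9%). A fit of the 4 CCl4 libraries alone, which takes the spread from 2 residual degrees of freedom, called 164 of 15314 genes higher (1.07%) and 111 lower (0.725%). Without 6-week replicate 2 that fit called 377 higher and 309 lower. The common biological coefficient of variation was 0.176 across the 5 groups and 0.0947 in the 4 libraries. DESeq2 called 23 genes and limma-voom with quality weights 8 on the 14 libraries. All 8 were among the 23, and the fit of 4 libraries called 16 of the 23 and 7 of the 8. Below, a gene is said to have risen or fallen between the schedules only in the fit of 4 libraries, and each such statement names that fit.

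The gene highest in the ranking was Zbed6, a transcription factor that represses Igf2. It stood at 11.3 and 9.18 CPM on the 6-week schedule and at 28.2 and 20.6 CPM on the 10-week schedule. The 2 groups did not overlap, and the olive oil kidneys, at 11.6, 10 and 11.9 CPM, lay with the 6-week kidneys. Its log2 change was 1.25 ± 0.20 (SE, n = 2 and 2), with an adjusted p of 0.273 by edgeR's quasi-likelihood test. Zbed6 sits inside an intron of Zc3h11a, whose own counts were 115 and 115 CPM against 126 and 116 CPM, and reads of the pair may not be fully separated. Cbl, a ubiquitin ligase that turns off receptor tyrosine kinases, read 9.23 and 7.40 CPM at 6 weeks against 19.3 and 18.1 CPM at 10 weeks, a log2 change of 1.17 ± 0.20. The kinase Syk, which relays immune receptor signals, stood at 4.10 and 5.38 CPM against 12.8 and 8.81 CPM. Clock, the core activator of the circadian clock, moved by less but very evenly, from 61.5 and 65.3 to 84.8 and 86.1 CPM, with olive oil in between at 69.9 to 72.3 CPM. The other genes taken by the rule on the higher side were Lst1, a leukocyte transcript (0.467 and 0.444 against 2.48 and 1.94 CPM), the aminopeptidase Lnpep, the phosphatase Ptpn4 and the nuclear receptor corepressor Lcor. None of these 8 passed over all genes, with adjusted p between 0.273 and 0.274, and all 8 rose in the fit of 4 libraries, with adjusted p between 0.00812 and 0.0476. The rule picked these 8 by p and by no overlap in the same 4 kidneys, so that fit is not independent support for them.

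**Figure D1:**
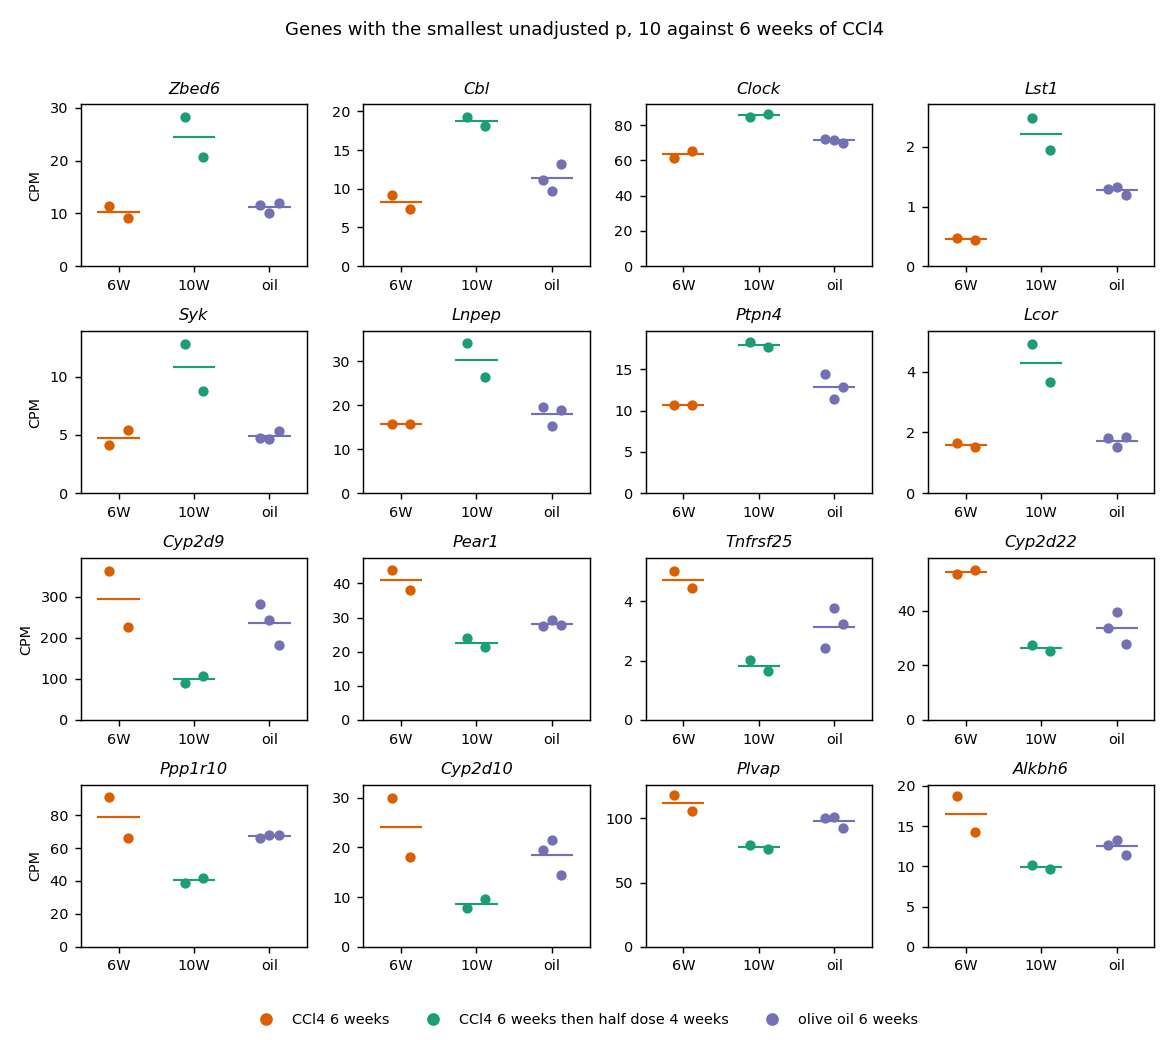
Level of the 16 genes with the smallest unadjusted p under the naming rule, 8 higher and 8 lower on the 10-week schedule, in CPM (y axis, from 0) for each kidney (points) with the group mean (line). The 2 kidneys of the 10-week schedule lie outside the range of the 2 kidneys of the 6-week schedule in every panel, which the naming rule required.

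On the lower side the ranking held 3 members of the Cyp2d family, cytochrome P450 enzymes that oxidise drugs and steroids. Cyp2d9, a steroid 16-alpha-hydroxylase known for its male bias in liver, stood at 362 and 227 CPM on the 6-week schedule and at 90.2 and 108 CPM on the 10-week schedule. Both 10-week kidneys were also below all 3 olive oil kidneys, which read 282, 244 and 183 CPM. The log2 change of Cyp2d9 was -1.57 ± 0.26, with an adjusted p of 0.273 by edgeR's quasi-likelihood test and 0.105 in the fit of 4 libraries, where the 6-week pair is wide apart. Cyp2d10 showed the same order at a lower level, 29.9 and 18.1 against 7.86 and 9.54 CPM. Cyp2d22 was tight within each schedule, at 53.6 and 55.0 against 27.3 and 25.4 CPM, a log2 change of -1.04 ± 0.20, and it fell in the fit of 4 libraries with an adjusted p of 0.00218. All 9 Cyp2d genes tested, a pseudogene aside, were below without overlap, against 22.9% of all genes. They were looked up after the values of the first were seen. Of the 9, 5 fell in the fit of 4 libraries, against 0.725% of all genes: Cyp2d11, Cyp2d13, Cyp2d22, Cyp2d26 and Cyp2d40. Cyp2d12, with a change of -0.59 ± 0.68, did not pass there (adjusted p = 0.0545), and the whole list of 29 cytochrome P450 and CCl4 metabolism genes had a median of -0.03. Cyp2d26 stood at 219 and 212 CPM against 112 and 110 CPM, with olive oil at 87.7 to 151 CPM, a range that takes in the 10-week and not the 6-week kidneys. Near copies in this family can share reads, so the members are not independent measurements.

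How alike the family is can be seen in the promoters of Cyp2d9 and Cyp2d10, which lie near each other on chromosome 15. RefSeq's windows from 250 bases before to 50 after the start site (build GRCm38.p6) align with 255 identical letters in 306 columns, or 83.3%. The sequences are shown because both genes were in the lower ranking, although neither passed in the 5-group fit or in the fit of 4 libraries. Capitals mark letters that differ from, or are missing in, the other promoter. Cyp2d9 lies at chr15:82452127-82452426 on the plus strand and Cyp2d10 at chr15:82407145-82407444 on the minus strand.
Cyp2d9: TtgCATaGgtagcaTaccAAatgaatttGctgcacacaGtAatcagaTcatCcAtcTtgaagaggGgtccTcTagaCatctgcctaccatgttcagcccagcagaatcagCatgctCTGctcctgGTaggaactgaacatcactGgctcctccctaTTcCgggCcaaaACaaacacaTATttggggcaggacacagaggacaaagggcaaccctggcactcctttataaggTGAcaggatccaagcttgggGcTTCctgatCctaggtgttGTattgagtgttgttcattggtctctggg
Cyp2d10: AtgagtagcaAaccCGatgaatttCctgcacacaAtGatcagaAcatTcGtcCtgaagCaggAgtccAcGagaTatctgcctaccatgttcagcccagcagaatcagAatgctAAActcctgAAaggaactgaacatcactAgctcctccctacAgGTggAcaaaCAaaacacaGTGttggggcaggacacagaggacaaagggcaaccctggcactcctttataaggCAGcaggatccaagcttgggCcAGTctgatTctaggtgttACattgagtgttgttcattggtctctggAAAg

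The other genes of the lower ranking were Pear1, a receptor of platelets and endothelium (44.0 and 38 against 23.9 and 21.3 CPM), Plvap, the diaphragm protein of fenestrated capillaries (118 and 106 against 79.6 and 76.5 CPM), Tnfrsf25, a death-domain receptor (5.03 and 4.44 against 2.01 and 1.64 CPM), the phosphatase regulator Ppp1r10 and the demethylase homolog Alkbh6. For Pear1 and Plvap the olive oil kidneys, at 27.4 to 29.2 and 92.5 to 101 CPM, lay between the schedules. None of the 8 passed over all genes, with adjusted p between 0.273 and 0.352, while Pear1, Tnfrsf25, Cyp2d22, Ppp1r10 and Plvap fell in the fit of 4 libraries. These 8 were likewise picked in the same 4 kidneys, so that fit is not independent support for them.

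Macrophage genes were mostly higher on the 10-week schedule, although none passed over all genes. Of 20 tested, 13 were higher and 0 lower at an unadjusted p under 0.05 (3.51% and 3.16% of all genes), and 18 had no overlap between schedules, all higher, against 24.1% of all genes. Their median change was 0.88, against 0.00 for all genes. Emr1, which encodes the macrophage marker F4/80, read 8.71 and 12.1 CPM at 6 weeks and 31.1 and 16.5 CPM at 10 weeks, with olive oil at 10.7 to 15.5 CPM, a log2 change of 1.19 ± 0.34 between the schedules. The integrin Itgam read 5.39 and 6.96 against 22.7 and 15.7 CPM, and Cx3cr1, the fractalkine receptor of resident macrophages, 5.55 and 6.86 against 14.9 and 10.8 CPM. Itgam and Cx3cr1 rose in the fit of 4 libraries, with adjusted p of 0.00865 and 0.0330, and no other member of the list did. The scavenger receptor Marco is outside the list and was looked up after its values were seen. It was listed at 0 in both 6-week kidneys and at 0.886 and 0.608 CPM in the 10-week kidneys, under 1 CPM in all. Lysozyme (Lyz2) separated the groups by little, with 41.0 and 86.3 against 186 and 90.9 CPM. In each of these genes 10-week replicate 1 was also above 10-week replicate 2, and without 10-week replicate 1 the median of the list was 0.52. The summed level of the list was 296 and 425 CPM at 6 weeks and 770 and 492 CPM at 10 weeks. In bulk tissue more cells of a type and more RNA per cell cannot be told apart.

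Neutrophil genes were low but followed the same order. All 10 tested were higher in both 10-week kidneys without overlap, against 24.1% of all genes. Of them 3 were higher at an unadjusted p under 0.05 (3.51% of all genes), and the median change was 2.05. S100a9, a granule protein subunit, read 0.829 and 1.33 CPM against 18.7 and 7.29 CPM, and its partner S100a8 read 0.467 and 0.839 against 10.6 and 3.77 CPM. The granulocyte growth factor receptor Csf3r stood at 1.45 and 2.27 against 10.1 and 4.92 CPM and rose in the fit of 4 libraries (adjusted p = 0.0489). Olive oil kidneys spanned 2.47 to 7.54 CPM for S100a9, so that 10-week replicate 2, at 7.29 CPM, lay inside their range, and both 6-week kidneys lay below it. The summed level of the list was 5.55 and 8.44 CPM at 6 weeks against 53.6 and 24.8 CPM. T and NK genes summed to 12.4 and 14.1 against 16.8 and 16.2 CPM, and B and plasma genes to 46.6 and 36.7 against 57.1 and 45.1 CPM. Both lists had members on both sides of 0, with medians of 0.37 and 0.33. Without overlap, 6 T and NK genes were above and 1 below, and 2 B and plasma genes above and 1 below (24.1% and 22.9% of all genes). At an unadjusted p under 0.05, 0 of 16 T and NK genes and 1 of 9 B and plasma genes were higher, against 3.51% of all genes.

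Of 20 complement genes, 10 were higher and 0 lower at an unadjusted p under 0.05 (3.51% and 3.16% of all genes), 13 were above and 2 below without overlap (24.1% and 22.9%), and the median change was 0.66. Cd55, which protects cells from complement, read 15.0 and 15.7 against 27.1 and 31.7 CPM, and C4b, a component of the classical pathway, 34.8 and 36.9 against 54.8 and 59.1 CPM. Both rose in the fit of 4 libraries, with adjusted p of 0.00751 and 0.00865. The C1q chains C1qa and C1qc, which macrophages make, read 14.1 and 19.6 against 36.9 and 24.9 CPM and 13.3 and 17.2 against 37.2 and 21.9 CPM. Olive oil kidneys read 20.3 to 27.8 CPM for C1qa and 17.1 to 24.3 CPM for C1qc. Both ranges held 10-week replicate 2, and 10-week replicate 1 lay above them. Among 30 NF-kB and cytokine genes, 5 were higher and 0 lower at an unadjusted p under 0.05 (3.51% and 3.16% of all genes). In that list 20 were above and 2 below without overlap (24.1% and 22.9%), with a median of 0.38. The chemokines Cxcl1, Ccl2 and Ccl7, which call in neutrophils and monocytes, rose in the fit of 4 libraries, with log2 changes of 2.67 ± 0.82, 2.55 ± 1.08 and 2.72 ± 1.10 in the 5-group fit. Their levels stayed small: Ccl2 went from 0.829 and 0.592 CPM to 5.37 and 2.98 CPM. Olive oil kidneys read 0.645 to 2.17 CPM for Ccl2 and 0.442 to 1.46 CPM for Cxcl1, below both 10-week kidneys. Of 29 interferon-response genes, 3 were higher and 0 lower at an unadjusted p under 0.05 (3.51% and 3.16% of all genes). Without overlap 23 were above and 0 below (24.1% and 22.9%), and the median was 0.37. Isg15, a ubiquitin-like interferon product, read 2.07 and 1.97 against 4.73 and 3.34 CPM. Of 14 antigen presentation genes (MHC class II and its helpers), 2 were higher and 0 lower at that p (3.51% and 3.16% of all genes). Without overlap 11 were above and 0 below (24.1% and 22.9%), and the median was 0.34. By mean log2 of CPM plus 1, NF-kB and cytokine genes read 3.02, 2.92 and 3.17 in olive oil, below both 10-week kidneys at 3.34 and 3.20. The 6-week kidneys read 2.86 and 2.90 there. By summed level the olive oil kidneys lay above both 6-week kidneys in the last 3 lists, in ranges that overlapped the 10-week kidneys. Their summed levels were 451 to 512 CPM for NF-kB and cytokine genes (6-week 425 and 434, 10-week 498 and 482), 464 to 501 CPM for interferon genes (397 and 417, 514 and 471) and 1330 to 1590 CPM for antigen presentation genes (1190 and 1170, 1620 and 1370).

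**Figure D2:**
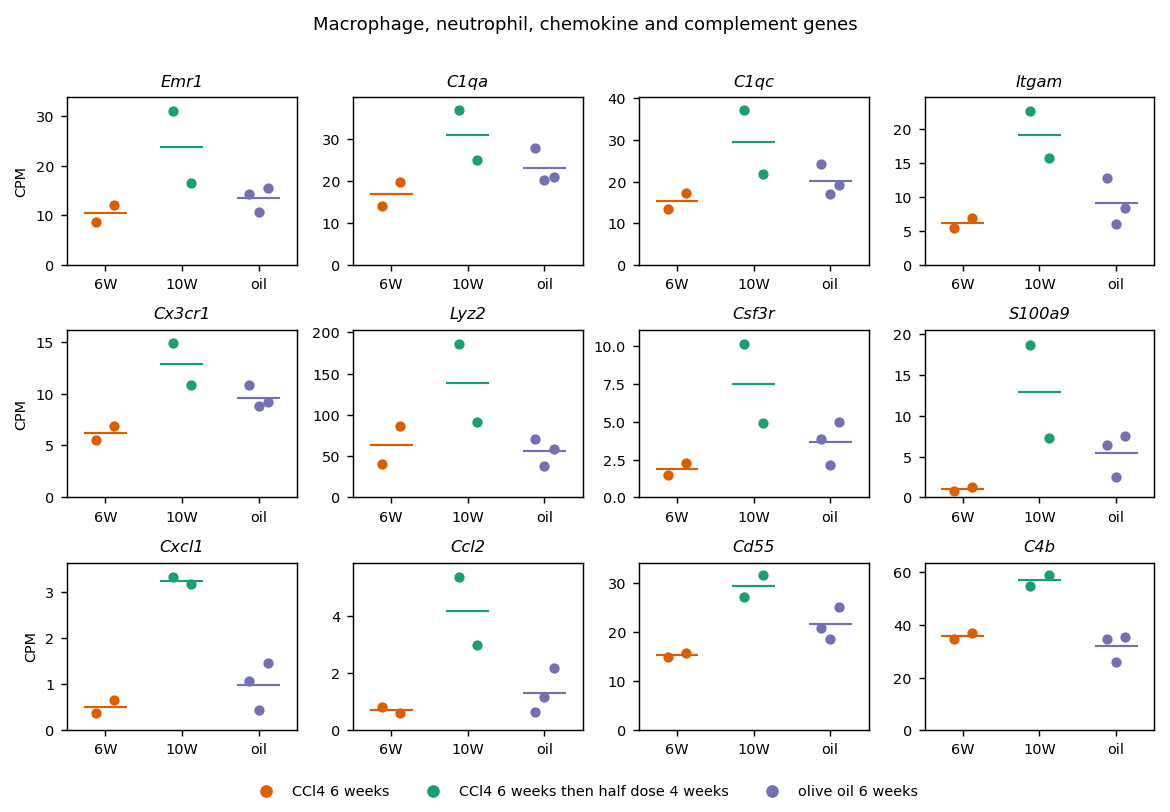
Level of macrophage (Emr1, C1qa, C1qc, Itgam, Cx3cr1, Lyz2), neutrophil (Csf3r, S100a9), chemokine (Cxcl1, Ccl2) and complement (Cd55, C4b) genes in CPM (y axis, from 0) by kidney (points), with the group mean (line). Both 10-week kidneys lie above both 6-week kidneys in all 12 panels, and the higher point of the 10-week group in the macrophage panels is 10-week replicate 1.

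Of 24 tubule injury genes, 1 was higher at an unadjusted p under 0.05 (3.51% of all genes). Without overlap 14 were above and 4 below (24.1% and 22.9% of all genes), and the median was 0.27. Of the list, Ccl2 and the stress cytokine Gdf15 (2.85 and 3.60 against 6.56 and 7.29 CPM, with olive oil at 3.63 to 7.95 CPM) rose in the fit of 4 libraries. Havcr1, which encodes the injury marker KIM-1, read 5.91 and 5.08 against 6.56 and 16.3 CPM, so that 10-week replicate 2 stood out, and Lcn2, the injury marker NGAL, read 5.65 and 2.67 against 6.97 and 9.54 CPM. Neither passed in either fit. Osteopontin (Spp1) was 1180 and 1300 against 917 and 1060 CPM. In the group given CCl4 and then EtOH, Havcr1 read 2000, 1150 and 108 CPM, so both schedules were far below it. Among 33 genes of extracellular matrix and fibrosis, 0 were higher and 1 lower at an unadjusted p under 0.05 (3.51% and 3.16% of all genes). The median of that list was 0.07. The collagen Col1a1 read 37.2 and 88.6 against 80.1 and 85.1 CPM, with olive oil at 31.9 to 115 CPM, so that no order of the groups can be read. The smooth muscle actin Acta2 (58.6 and 54.4 against 37.0 and 37.8 CPM) and the matricellular growth factor Ctgf (104 and 110 against 49.8 and 59.3 CPM) fell in the fit of 4 libraries. Acta2 in olive oil spanned 33.9 to 69.5 CPM, wider than both schedules.

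Endothelial, podocyte, collecting duct, and loop of Henle and distal tubule lists had medians below 0. Of 17 endothelial genes, 0 were higher and 4 lower at an unadjusted p under 0.05 (3.51% and 3.16% of all genes) and 9 were below without overlap (22.9%), with a median of -0.29, and Plvap alone fell in the fit of 4 libraries. Of 14 podocyte genes, 3 were lower at that p and 8 were below without overlap, with a median of -0.20: nephrin (Nphs1), the slit diaphragm protein, read 59.5 and 58.5 against 40.1 and 37.6 CPM, and the phosphatase Ptpro read 33.0 and 33.0 against 23.6 and 23.5 CPM. Both fell in the fit of 4 libraries, and the olive oil kidneys, at 34.7 to 43.8 CPM for Nphs1 and 22.8 to 25.9 CPM for Ptpro, overlapped the 10-week and not the 6-week values. Of 15 collecting duct genes, 3 were lower at that p, 9 were below without overlap and the median was -0.29. Foxi1, the transcription factor of intercalated cells, read 42.5 and 33.9 against 20.7 and 19.3 CPM, a log2 change of -0.93 ± 0.21, with olive oil between at 24.6 to 29.1 CPM. The epithelial sodium channel subunits Scnn1b and Scnn1g were 75.4 and 77.7 against 55.9 and 55.4 CPM and 66.6 and 62.6 against 45.8 and 50.4 CPM. Foxi1, Scnn1b and Scnn1g fell in the fit of 4 libraries. Olive oil kidneys read 60.6 to 79.0 CPM for Scnn1b and 51.3 to 63.2 CPM for Scnn1g. Both ranges lay above the 10-week kidneys and overlapped the 6-week values. Of 19 loop of Henle and distal tubule genes, 0 were higher and 1 lower at that p, and 1 was above and 10 below without overlap. Their median was -0.24, and 0 fell in the fit of 4 libraries.

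Of 17 genes under androgen control in the male kidney, 13 were above without overlap and 2 below (24.1% and 22.9% of all genes), 3 were higher and 1 lower at an unadjusted p under 0.05 (3.51% and 3.16%), and the median was 0.50. It lay between 0.46 and 0.58 when any of the 4 CCl4 kidneys was left out. Kap stood at 21800 and 20500 CPM against 29400 and 30400 CPM, a log2 change of 0.50 ± 0.34, within the olive oil range of 25600 to 31100 CPM at its upper end. Acsm3, a mitochondrial acyl-CoA synthetase, read 804 and 866 against 1640 and 1940 CPM, the organic anion transporter Slco1a1 read 221 and 265 against 632 and 741 CPM, and ornithine decarboxylase (Odc1) 172 and 255 against 505 and 600 CPM. Slc22a30, Gusb, Hsd17b11 and Cyp2j13 had the same order, and these 7 genes, without Kap, rose in the fit of 4 libraries. Olive oil replicate 3 had Slco1a1 at 1100 CPM and Odc1 at 974 CPM, above the 10-week kidneys. Olive oil replicates 1 and 2 had Slco1a1 at 201 and 303 CPM, so the vehicle kidneys spanned more than the difference between schedules for Slco1a1. Slc22a30 read 200 and 211 against 355 and 364 CPM, and its olive oil values of 237, 258 and 424 CPM also spanned more than that difference. The amino acid transporter Slc7a12, a transcript known to be higher in female than male kidney, went the other way, from 66.5 and 42.9 to 18.7 and 13.4 CPM, with an adjusted p of 0.602.

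**Figure D3:**
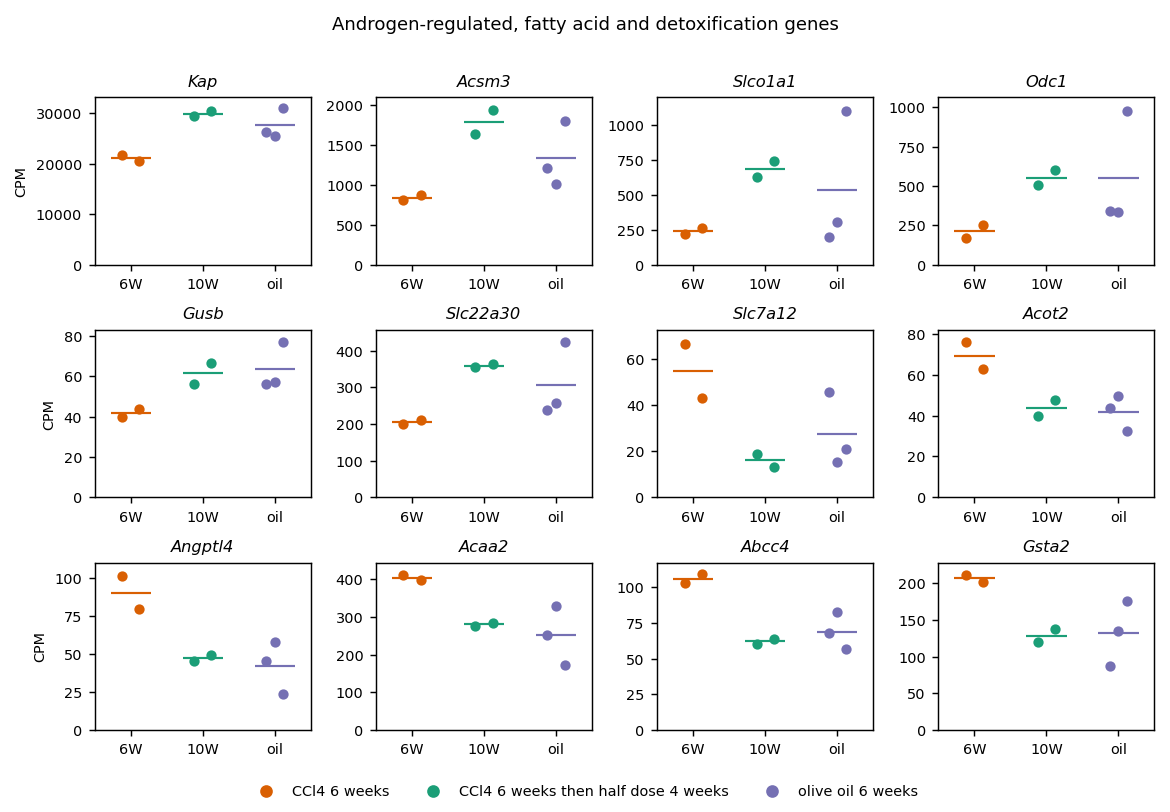
Level of androgen-regulated (Kap, Acsm3, Slco1a1, Odc1, Gusb, Slc22a30, Slc7a12), fatty acid (Acot2, Angptl4, Acaa2) and detoxification (Abcc4, Gsta2) genes in CPM (y axis, from 0) by kidney (points), with the group mean (line). The 10-week and 6-week kidneys do not overlap in any of the 12 panels. Panels in which at least 1 olive oil kidney reaches above both 10-week kidneys include Kap, Slco1a1, Odc1 and Slc22a30.

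Genes of fatty acid oxidation, which feed the proximal tubule's mitochondria and are switched on by the receptor PPAR-alpha in fasting, had a median change of -0.22. Of 37 tested, 6 were lower and 0 higher at an unadjusted p under 0.05 (3.16% and 3.51% of all genes), and 20 were below and 2 above without overlap (22.9% and 24.1%). Angptl4, a lipase inhibitor under that receptor, read 101 and 79.7 against 45.5 and 49.2 CPM, the acyl-CoA thioesterase Acot2 75.8 and 62.6 against 39.7 and 47.5 CPM, and the thiolase Acaa2 411 and 397 against at most 285 CPM. These 3 fell in the fit of 4 libraries. For Angptl4 both 10-week kidneys lay in the olive oil range of 23.7 to 57.7 CPM, and both 6-week kidneys lay above it. The median of 36 oxidative phosphorylation genes was 0.02, with 0 at an unadjusted p under 0.05 in either direction.

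Lipogenesis genes depended on 1 kidney. Fasn, the fatty acid synthase, read 208 and 294 against 1240 and 363 CPM, and acetyl-CoA carboxylase (Acaca) 26.1 and 34.2 against 125 and 50.4 CPM. Their unadjusted changes were 1.67 ± 0.52 and 1.54 ± 0.38, and without 10-week replicate 1 they were 0.53 and 0.74. The same kidney held the most fat-cell RNA of the 4: the heat protein of brown fat Ucp1 was at 119 CPM there and at 17.1, 13.4 and 13.7 CPM in the 2 kidneys of the 6-week schedule and 10-week replicate 2, and the fatty acid carrier Fabp4 was at 298 CPM against 141, 97.5 and 92.8 CPM. Of 17 adipocyte genes, 14 had a change above 0, with a median of 0.65, and the median was -0.28 without 10-week replicate 1. The summed level of that list was 975 and 793 CPM at 6 weeks and 1600 and 770 CPM at 10 weeks, and the part of fat cells in the lipogenesis values was not tested. The lipogenic regulator Srebf1 was even in the 10-week pair, at 39.2 and 52.5 against 87.8 and 80.8 CPM, and rose in the fit of 4 libraries (adjusted p = 0.0205). Olive oil kidneys read 50.5 to 74.2 CPM for Srebf1, between the schedules. The adrenal 21-hydroxylase Cyp21a1 read 3.90 CPM in 10-week replicate 1 and at most 0.0987 CPM in the other 3 CCl4 kidneys. Liver genes had the lowest median of any list, -0.66, which was -0.05 without 6-week replicate 1, and their summed level was 780 and 656 CPM at 6 weeks and 683 and 776 CPM at 10 weeks.

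**Figure D4:**
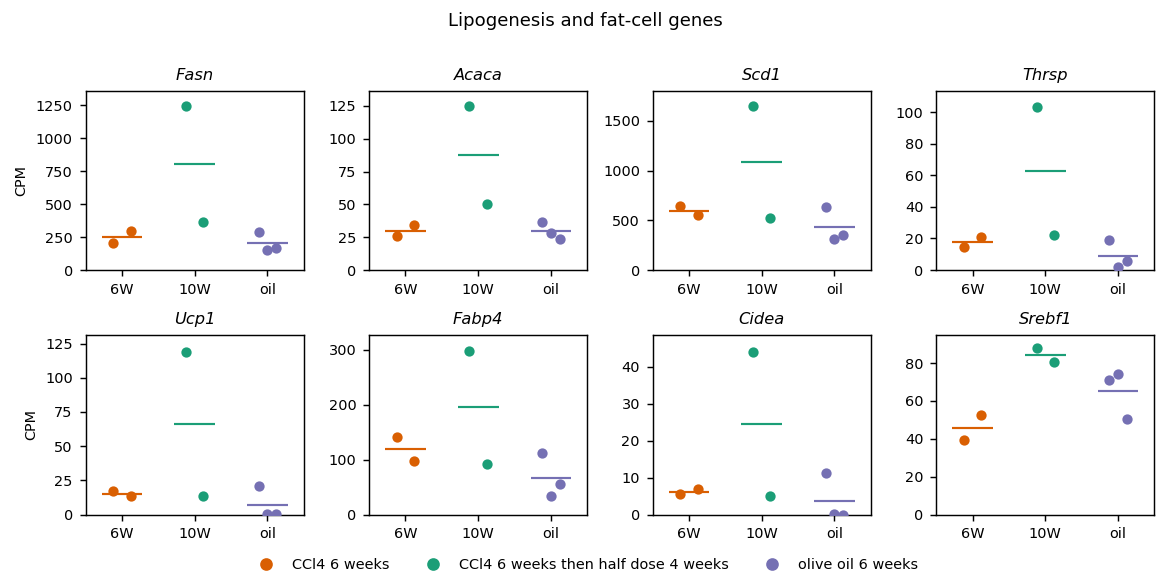
Level of lipogenesis genes (Fasn, Acaca, Scd1, Thrsp, Srebf1) and fat-cell genes (Ucp1, Fabp4, Cidea) in CPM (y axis, from 0) by kidney (points), with the group mean (line). In every panel but Srebf1, 10-week replicate 1 lies far above 10-week replicate 2, which lies nearer to the 6-week kidneys.

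The circadian clock runs as a loop in which Clock and its partner Arntl switch on the Per and Cry genes, which in turn repress them. On the 10-week schedule Clock and Arntl were higher and Per1, Per2, Per3 and Cry2 lower, while Cry1 overlapped, at 3.68 and 4.10 against 3.90 and 4.38 CPM. Arntl read 15.5 and 17.3 against 24.8 and 26.5 CPM, Per3 48.6 and 41.3 against 31.6 and 26.7 CPM, and Cry2 29.1 and 29.0 against 19.2 and 20.7 CPM. Clock and Arntl rose and Per3 and Cry2 fell in the fit of 4 libraries. Per1, the member that also responds to glucocorticoids, read 68.7 and 42.7 against 19.7 and 22.7 CPM, with a log2 change of -1.39 ± 0.47 and an adjusted p of 0.615, and the output factor Dbp read 55.7 and 39.2 against 24.7 and 18.1 CPM. Of 23 clock genes tested, 1 was higher and 3 were lower at an unadjusted p under 0.05 (3.51% and 3.16% of all genes), 2 were above and 13 below without overlap (24.1% and 22.9%), and the median was -0.24. Olive oil kidneys spanned 9.05 to 30.4 CPM for Arntl and 20.7 to 63.2 CPM for Dbp, a wider range than the difference between schedules. The labels do not give the hour of necropsy, and its part in these values was not tested.

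Clock and Arntl bind the E-box, CACGTG. Promoter windows from RefSeq (build GRCm38.p6) were found for 18 genes from the 24 symbols of the clock list. CACGTG is held by 5 of the 18 (27.8%), against 8.09% of 27025 genes with a window of the same length. The motif is its own reverse complement, so both strands are covered by a single search. Those 5 are Per1, Cry1, Bhlhe41, Ciart and Tef. The Per1 window is shown because Per1 has the largest negative change among the Per genes, with its E-box in capitals, at chr11:69098699-69098998 on the plus strand.
Per1: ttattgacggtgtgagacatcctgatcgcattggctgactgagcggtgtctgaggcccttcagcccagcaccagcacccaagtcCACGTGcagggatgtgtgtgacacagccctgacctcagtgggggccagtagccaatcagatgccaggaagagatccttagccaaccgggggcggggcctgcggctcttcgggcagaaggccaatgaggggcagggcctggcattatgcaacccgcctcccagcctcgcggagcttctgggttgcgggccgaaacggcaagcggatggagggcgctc

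Genes of detoxification under the oxidative stress factor NRF2 were partly lower. Of 34 tested, 0 were higher and 3 lower at an unadjusted p under 0.05 (3.51% and 3.16% of all genes). The median was -0.01, so by its median the list lay with all genes. The exporter Abcc4 read 103 and 109 against 60.2 and 63.9 CPM, the quinone reductase Nqo1 95.3 and 87.7 against 59.4 and 61.4 CPM, and the glutathione transferase Gsta2 211 and 202 against 120 and 137 CPM. These and Gsta1 fell in the fit of 4 libraries. Gsta1 and Gsta2 are near copies and may share reads. Cyp2e1 itself read 1720 and 1740 against 1830 and 2120 CPM, and the heme oxygenase Hmox1 34.4 and 38.4 against 44.2 and 47.9 CPM, neither near the threshold.

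Some genes were looked up after their values had been seen. Kynu, a tryptophan-degrading enzyme, read 25.2 and 28.9 against 10.2 and 10.6 CPM, with olive oil at 4.88 to 15.1 CPM, and fell in the fit of 4 libraries (adjusted p = 0.00218). Bcl6, a transcriptional repressor, read 34.4 and 43.5 against 96.7 and 98.3 CPM, and Il34, a macrophage growth factor that tubules secrete, 11.8 and 9.23 against 27.2 and 31.4 CPM. Both rose in that fit. Olive oil kidneys were at 22, 104 and 96.0 CPM for Bcl6 and at 19.8 to 29.0 CPM for Il34, so vehicle kidneys reached the 10-week level in both. The nuclear RNA Malat1 read 551 and 526 against 828 and 1130 CPM. Genes were also split into 4 equal classes by transcript length, each of 3889 or 3890 genes. The longest held 216 genes higher and 131 lower at an unadjusted p under 0.05. The next held 98 and 144, the next 111 and 128 and the shortest 116 and 91. In the fit of 4 libraries the longest class held 61 higher and 19 lower, and the next 36 and 22. Both shorter classes held 33 and 32. The part of transcript length in the calls was not tested.

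Each schedule was set against the same 3 olive oil kidneys, so the 2 comparisons share their controls. No gene passed on the 10-week schedule (0 of 16442, 0.0%, with 862 or 5.24% at an unadjusted p under 0.05), and none on the 6-week schedule (0 of 16442, 0.0%, with 803 or 4.88%). DESeq2 called 15 and 6 genes in them, and limma-voom 0 and 3. Against the group given CCl4 and then EtOH the picture was different. That group had 1942 genes higher (11.8%) and 1811 lower (11%) than the 10-week schedule, and 2313 higher (14.1%) and 1981 lower (12%) than the 6-week schedule. In that test, of 20 macrophage genes 9 were called higher than on the 10-week and 17 than on the 6-week schedule, of 24 tubule injury genes 21 and 21, and of 17 androgen-regulated genes 12 and 10 were called lower. These 2 comparisons share the same 3 kidneys given CCl4 and EtOH, and the difference between their counts was not tested. The 10-week schedule matches that group in total weeks and the 6-week schedule is 4 weeks shorter, and whether the group had CCl4 in the EtOH weeks is unclear from its labels. With only the 2 groups compared in the fit, the calls were 137 and 256.

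The change between the schedules was also set against the change from olive oil to EtOH after olive oil, which likewise adds 4 weeks and shares no library with it. The 2 changes differed for 16 genes of 16442, 8 more positive with CCl4 (0.0487%) and 8 more negative (0.0487%). Gc, the vitamin D binding protein, read 61.6 and 60.1 against 36.5 and 35.6 CPM between the schedules, and 31.7 to 40.1 CPM in olive oil against 112 to 182 CPM with EtOH. The difference of the 2 log2 changes was -2.86 ± 0.37, with an adjusted p of 0.0238 by edgeR's quasi-likelihood test. Cyp2d22 read 27.7 to 39.6 CPM in olive oil and 56.8 to 85.3 CPM with EtOH, opposite to its order between the schedules, and Slc5a10, a proximal tubule sugar transporter, read 285 and 221 against 150 and 181 CPM, with 151 to 227 CPM in olive oil and 474 to 615 CPM with EtOH. In the other direction Cyp4a12a, an arachidonic acid hydroxylase of male kidney, read 76.3 and 113 against 183 and 195 CPM, and 174 to 302 CPM in olive oil against 44.1 to 68.8 CPM with EtOH, a difference of 2.98 ± 0.43. Idi1, of cholesterol synthesis, read 37.9 and 82.4 against 124 and 123 CPM, and 83.6 to 130 CPM against 27.9 to 37.6 CPM. EtOH replicates 1 to 3 held adrenal transcripts, with Cyp21a1 at 187, 180 and 241 CPM, and EtOH replicate 4 held 0 CPM. Replicate 4 lay with the other EtOH kidneys for Cyp2d22, Slc5a10, Cyp4a12a and Idi1, at 77.3, 615, 67.0 and 37.6 CPM, and its Gc was 112 CPM. No gene passed this test without 6-week replicate 1, without 10-week replicate 1 or without 10-week replicate 2.

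**Figure D5:**
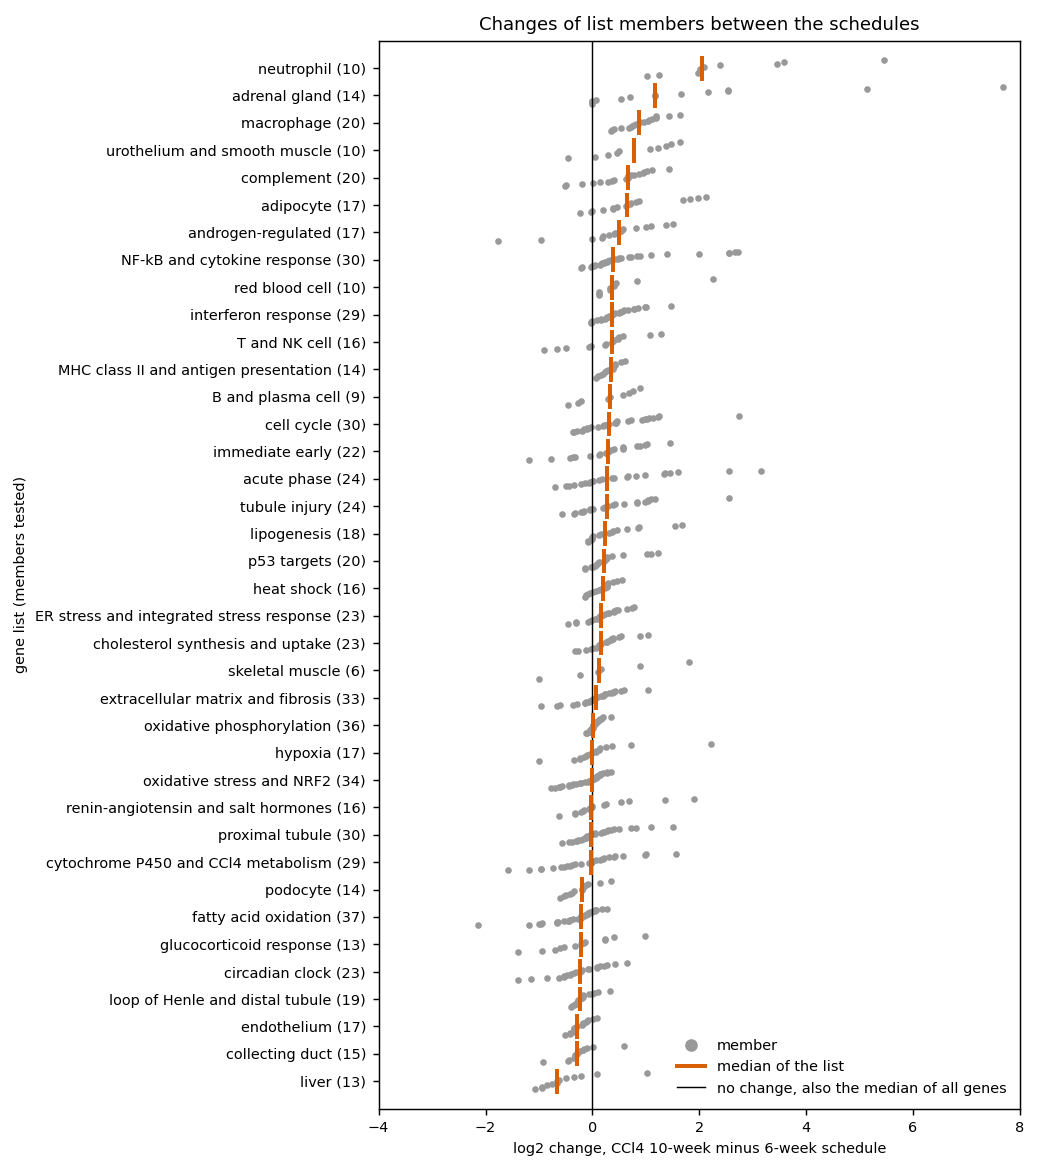
Log2 change (x axis, 10-week minus 6-week schedule in the 5-group fit) of every tested member (points) of 38 gene lists (y axis, number of members tested in brackets), with the median of each list (bar). The median is 2.05 for the neutrophil and 0.88 for the macrophage list, and the line at 0 is also the median of all genes. Fitted changes of genes near 0 counts depend on the prior count, as for the adrenal list, of which 3 of 14 members are tested in the fit of 4 libraries, so that its median is not read.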

How the data were processed

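Kidney RNA was sequenced, and the authors deposited raw read counts per gene symbol with no normalization. GSNAP and mm9 are named per the submitters' processing notes, while the counter, the annotation and the strand setting are not stated in the labels or files. Of 23893 rows, 27 date-named rows (0.168% to 0.209% of each library) were left out. One olive oil sample was not analysed here. Totals were 16.4 to 23.5 M counts.

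Counts were tested with edgeR 4.0.16 (R 4.3.3): filterByExpr by group, TMM, robust quasi-likelihood F test in a fit of 5 groups, Benjamini-Hochberg adjustment over 16442 genes, threshold 0.05. All adjusted p are of that test unless the fit of 4 libraries, DESeq2 1.42.0 or limma 3.58.1 is named. With 2 against 2 kidneys the smallest exact permutation p is 0.333. The rule took genes with a mean of at least 1 CPM and no overlap, 8 per direction by unadjusted p where fewer passed, up to 3 members of each list and a fixed panel. Members, comparisons and the 38 lists were chosen with earlier results of these data known. Chi-square per gene between libraries of a group was at least 11.8, the value of the 6-week pair, and was 11.9 for the 10-week pair. In the group given CCl4 and EtOH, which shares in the 5-group spread, it was 32.2, 153 and 184. The pipeline was tested on simulated data. Promoters came from RefSeq tables of GRCm38.p6. Alternatives were other scaling factors and filters, no robust estimation, other tools, fits of fewer groups and leaving out each library.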

Additional observations from a re-analysis of the deposited data

Results flagged for a closer look

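For 16 genes the change from the 6-week to the 10-week schedule differed from the change from olive oil to EtOH, by the test of the difference itself (adjusted p under 0.05, edgeR). The differences in log2 change were -2.86 for Gc, -2.57 for Apoc3 (an apolipoprotein of triglyceride-rich particles), -2.16 for Cyp2d22, -2.14 for Slc5a10, -2.01 for Cyp2d9, -1.93 for Aldh1a1 (a retinal dehydrogenase), -1.87 for Mgst1 (a microsomal glutathione transferase) and -1.72 for Fam83g. They were 1.30 for Pdk3 (a pyruvate dehydrogenase kinase), 1.34 for Gusb (the lysosomal beta-glucuronidase), 1.42 for Ggct, 1.53 for Ces2b (a carboxylesterase), 1.97 for Cndp2 (a dipeptidase), 2.75 for Idi1, 2.98 for Cyp4a12a and 4.33 for Xcr1 (the chemokine receptor of cross-presenting dendritic cells). Xcr1 was at most 2.30 CPM in the 4 CCl4 kidneys. Mgst1 overlapped between the schedules, at 99.7 and 84.0 against 88.0 and 68.3 CPM, so its difference rests on the EtOH side, with 65.0 to 76.9 CPM in olive oil and at least 173 CPM with EtOH.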

How the results depend on the processing

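The count of genes between the schedules was 0 with DESeq2 size factors, upper-quartile factors, other filters, no robust estimation and without the group given CCl4 and EtOH, and higher and lower genes numbered 11 and 12 with DESeq2, 3 and 5 with limma-voom, and 164 and 111 in the fit of only the groups compared. Leaving out each library in turn in the 5-group fit gave 0 to 1 higher (1, Zbed6, without CCl4 and EtOH replicate 3) and 0 lower. Added after seeing the data, the fit of 4 libraries with 1 left out, where the lone kidney is assumed to vary like the other group, gave 150 and 120 without 6-week replicate 1, 377 and 309 without 6-week replicate 2, 147 and 83 without 10-week replicate 1, and 288 and 157 without 10-week replicate 2. Against olive oil, DESeq2 gave 15 for the 10-week schedule, and leaving out libraries gave 0 to 1. The 6-week schedule gave 6 with DESeq2 and 3 with limma-voom. CCl4 and EtOH against the 10-week schedule gave 6490 with limma-voom, 137 in the fit of only the groups compared and 803 to 6213 with libraries left out, and against the 6-week schedule 6892, 256 and 802 to 6726. The difference of changes gave 198 with DESeq2, 240 with limma-voom, 116 without the group given CCl4 and EtOH, 116 with only the groups compared and 0 to 106 with libraries left out. No gene whose log2 change between the schedules is printed in the comparison of the schedules reversed its direction under these settings. No paired analysis was possible because the sample numbers in the titles are unique and mark no shared litter, batch or day. Genes under about 1 CPM rest on few counts, so their changes are imprecise at these depths.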
